A study of Homo sapiens with 15 samples.

Results

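HIF2α-only promoter peaks are gene starts at which HIF2α was called on chromatin and BMAL1 was not. They were chosen by measured peak calls: a HIF2α peak of shControl cells was a member when it shared no base with a shControl BMAL1 peak and its midpoint lay from 1000 bp upstream to 100 bp downstream of a transcript start (hg19, GENCODE 44). The rule found 215 such peaks among 1204 HIF2α peaks of shControl cells and among 4873 peaks in the 4 lists of the series. The HIF2α call, absence of BMAL1 and position at a start were set by the rule and are not findings. Of the 1204 HIF2α peaks, 868 (72.1%) shared no base with BMAL1, and 653 of those lay away from starts.

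The cells were 786-O, a human line of clear cell renal cell carcinoma, and all groups carried a lentiviral shRNA construct and were selected in puromycin. Cells named shControl, given as WT in the labels, carried a control shRNA, and cells named shBMAL1, given as BMAL1 knockdown, carried an shRNA against BMAL1. Chromatin was profiled by CUT&RUN, in which an antibody guides a nuclease to a bound protein and the cut DNA is sequenced. The 15 libraries form 6 groups: HIF2α in shControl (3 libraries) and shBMAL1 (3), BMAL1 in shControl (3) and shBMAL1 (2), and the IgG controls (4 in all), which were not analysed here. Each antibody group gave 1 pooled peak list, so that no value below carries an error between libraries, the units of every test are peaks, and the depth behind a peak is not in the lists. The shBMAL1 cells had 1089 HIF2α peaks, and their BMAL1 list held 768 peaks against 1812 in shControl cells. The degree of knockdown is not in these lists.

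HIF2α, the product of EPAS1, is an oxygen-regulated bHLH-PAS transcription factor that pairs with ARNT and binds the hypoxia response element (HRE), whose core is ACGTG or GCGTG. VHL marks HIFα proteins for destruction, and its loss in clear cell renal carcinoma leaves HIF2α stable in the presence of oxygen. BMAL1 is a related bHLH-PAS protein that pairs with CLOCK on the E-box CACGTG and drives the circadian clock. Each E-box holds an HRE core on each strand, so every window with an E-box also counts as one with an HRE core.

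The sequences under the strongest members show the HRE core in its surroundings. The core nearest the summit is shown for 6 of the 10 members of smallest p, and for FOSL2, a member of the AP-1 family list. Sequences are hg19, run 5′ to 3′ on the strand given, and have the core in capitals. In ALDOA, ECE1, SRSF9 and FOSL2 the letters caca stand near the 3′ end, downstream of the core.
RN7SL346P (chr15:90709144-90709172, minus strand): gcaggggtgcatGCGTGaaggcttggggg
ALDOA (chr16:30076871-30076899, minus strand): cacccccctcggACGTGactcggaccaca
ECE1 (chr1:21565091-21565119, plus strand): atgagaactgagACGTGcctgactccaca
CPOX (chr3:98312666-98312694, minus strand): acccgaggttgtACGTGacaagaaagcct
ENKUR (chr10:25351546-25351574, minus strand): gctgatcaaggtACGTGctgttactaaca
SRSF9 (chr12:120912643-120912671, plus strand): agtcactgggaaACGTGttcctggtcaca
FOSL2 (chr2:28615649-28615677, plus strand): agtctggggttgACGTGagtgaatccaca

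Members at genes of the hypoxia list carried the core too. The set below runs from glycolysis and glucose uptake to collagen hydroxylation, lipid storage, iron uptake and angiogenesis, and PKM and VEGFA are the members that were not called in shBMAL1 cells. Capitals mark the core nearest the summit.
PGK1 (chrX:77359550-77359578, minus strand): ggtactagtgagACGTGcggcttccgttt
SLC2A1 (chr1:43398089-43398117, minus strand): gtgtgatggtatACGTGcataagaagccg
P4HA1 (chr10:74856694-74856722, plus strand): gcagccctcgctACGTGagctcgatcaca
HILPDA (chr7:128095805-128095833, plus strand): gtggggccgcggACGTGcgccacgtcgtg
TFRC (chr3:195809033-195809061, minus strand): cctcgcgagcgtACGTGcctcaggaagtg
PKM (chr15:72522854-72522882, plus strand): gcgggggagcggACGTGaccagcaagcag
VEGFA (chr6:43737457-43737485, plus strand): gagtgagtgtgtGCGTGtggggttgaggg

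The E-box was present in a minority of members. These 5 of the strongest members with an E-box are shown because the site that BMAL1 binds was there and no BMAL1 peak was. Capitals mark the whole E-box.
FGGY (chr1:59762591-59762620, plus strand): tcctctcagtccCACGTGggcgctgggggc
CCDC107 (chr9:35657899-35657928, plus strand): tacgtgcgtatgCACGTGgcactctctgcc
NOCT (chr4:139936595-139936624, plus strand): cactctgacagaCACGTGtcccctgggcca
ENSG00000287560 (chr10:3089407-3089436, plus strand): tgtgaatgtatgCACGTGcacacactcaca
MFSD4B (chr6:111580501-111580530, plus strand): ccacatttccgcCACGTGacccgcgcatgc

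Cores could stand in clusters. HILPDA, which encodes a protein of lipid droplets, had 7 cores in the 200 bp centred on its summit, and 140 bases around that summit are shown with the cores of either strand in capitals (CACGT and CACGC are the core read from the other strand, and neighbouring cores may run together). The peak near ENKUR had 2 cores within the same length.
HILPDA (chr7:128095749-128095888, plus strand): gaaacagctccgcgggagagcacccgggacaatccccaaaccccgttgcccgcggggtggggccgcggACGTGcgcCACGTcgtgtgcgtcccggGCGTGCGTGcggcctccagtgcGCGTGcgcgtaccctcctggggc
ENKUR (chr10:25351530-25351669, plus strand): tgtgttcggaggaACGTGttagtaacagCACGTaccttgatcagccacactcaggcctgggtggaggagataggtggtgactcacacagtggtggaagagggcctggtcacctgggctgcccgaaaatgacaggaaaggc

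Most members met the rule at a start of a protein-coding gene, though often not at the canonical one. The starts that met the rule included that of a protein-coding gene for 164 members. The other members had a start of a long noncoding RNA (39), otherwise of a pseudogene (9) or of another class (3). Positions of members are given from the start nearest the summit among these, with starts of coding genes taken ahead of all others. At 100 members the starts that met the rule included the canonical start of a coding gene, and at 115 they did not. In all, 181 coding genes had a member at one of their starts, which is 0.899% of the 20136 annotated. The summit was upstream of the start so chosen in 169 members. The median position over all 215 was 92 bp upstream, and the summit lay within 250 bp of the start in 156 (72.6%). That share was 72.5% for the 109 HIF2α promoter peaks that overlapped BMAL1, called co-occupied here, and 82.4% for the 1046 BMAL1 promoter peaks without HIF2α. Taking coding starts first can lengthen distances of members, and its effect on the share was not tested. The summit itself fell in an intron of some transcript in 81 members, between genes in 53, in a noncoding exon in 43, in a UTR in 29 and in a coding exon in 9.

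**Figure D1:**
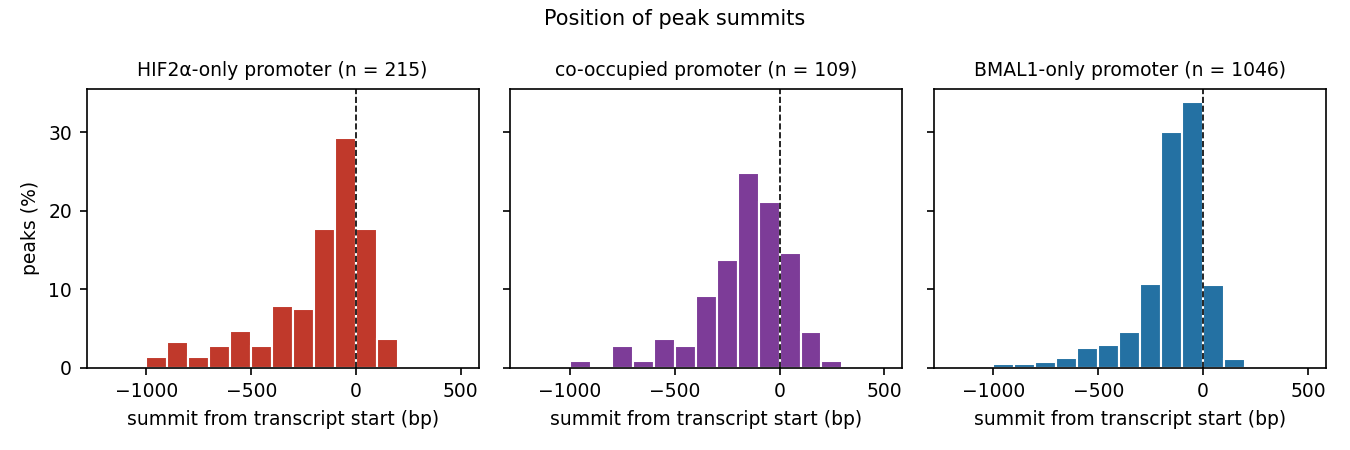
Histograms of the distance from peak summit to transcript start (x axis, bp, negative is upstream, dashed line at the start) as a percentage of peaks (y axis, bins of 100 bp) for the 215 HIF2α-only, 109 co-occupied and 1046 BMAL1-only promoter peaks. For HIF2α-only peaks the start is the nearest of a coding gene where any met the rule. Each class has most summits within 250 bp of the start, with 72.6% of HIF2α-only and 82.4% of BMAL1-only peaks within that distance. The choice of a coding start can lengthen distances of HIF2α-only peaks, and its effect on these shares was not tested.

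Coding genes that run in opposite directions from 2 starts less than 1000 bp apart share a divergent promoter. At 11 of the 164 members with a coding start (6.71%, 95% Wilson interval 3.79 to 11.6%) the promoter was of that kind, against 4.60% of co-occupied and 11.9% of BMAL1-only promoter peaks at coding starts. Counted by gene, the share was 16 of 179 coding genes at members (8.94%, 5.58 to 14.0%), against 9.45% of all coding genes.

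As peaks the members were of middling height. Their median fold enrichment over local background was 6.22 (quartiles 5.08 and 7.95, range 2.34 to 20.1), and their median −log10 p was 18.3. HIF2α-only peaks away from starts, called distal, had a median fold of 7.27 and co-occupied promoter peaks of 5.4. When the whole HIF2α list was cut into quintiles by p, 35 members fell in the strongest quintile and 56 in the weakest, and 11 were among the first 100 peaks. Peak width ran from 141 to 805 bp with a median of 235 bp. The 200 bp around member summits had a median GC content of 61.5% and an observed-to-expected CpG ratio of 0.746. Co-occupied promoter peaks had 64.5% and 0.708, distal peaks 50.5% and 0.309, and BMAL1-only promoter peaks 69.0% and 0.802. The median GC content of the 200 bp before canonical protein-coding starts was 64.5%.

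The tallest member lay in an intron of SEMA4B near RN7SL346P, a copy of the 7SL RNA gene, with a fold of 20.07 in shControl and 20.01 in shBMAL1 cells. ALDOA, which encodes the glycolytic enzyme aldolase A, had folds of 14.9 and 20.6. ECE1, the endothelin-converting enzyme, had 16.5 and 11.6. These were the 3 members of smallest p, and in none of them was the peak lost in shBMAL1 cells.

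RASSF4, which encodes a Ras-association domain protein, had a fold of 12.5 in shControl and 11.6 in shBMAL1 cells. CPOX, coproporphyrinogen oxidase of haem synthesis, had 12.4 and 24.1, and the peak at the starts of GEMIN6, of the SMN complex, and SRSF7, a splicing factor, had 17.2 and 7.96. The remaining members of the 10 of smallest p were at ENKUR (13.4 and 20.01), RGS20, a regulator of G protein signalling (12.7 and 11.4), LINC01714 (14.6 and 12.3) and the splicing factor gene SRSF9 (11.2 and 12.5). All 10 were called in both HIF2α lists, with the higher fold in shBMAL1 cells at ALDOA, CPOX, ENKUR and SRSF9. At ECE1, RASSF4, ENKUR, RGS20 and SRSF9 the peak met the rule at a start other than the canonical one. Folds were computed by the authors in each list separately, so that those of the 2 lists are set side by side here and in what follows with no test of their difference.

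HRE cores were present under most members. Motifs were counted on either strand in the 200 bp centred on the summit: the HRE core, the E-box, the AP-1 site TGACTCA or TGAGTCA, the GC box GGGCGG bound by SP factors, and the CCAAT box bound by NF-Y. An HRE core was found in 175 of 215 members (81.4%, 95% Wilson interval 75.7 to 86.0%). The background was 45.5% of 19862 protein-coding promoters, each taken as the 200 bp before the canonical start, and 23.5% of the windows 2000 bp to either side of the members. Distal peaks had the core in 71.7%, co-occupied promoter peaks in 67.9% and BMAL1-only promoter peaks in 63.7%. Members exceeded them by 9.73 percentage points (95% interval 3.10 to 15.6, adjusted p = 0.0113), 13.5 points (3.64 to 23.9, adjusted p = 0.0149) and 17.7 points (11.3 to 23.2, adjusted p = 1.09e-06) by Fisher's exact test. This test was two-sided for all motifs, its units are peaks, and Benjamini-Hochberg adjustment covered the 15 comparisons of a motif with a class. The rule demands a HIF2α call in members, and BMAL1-only peaks have none. The HRE difference from BMAL1-only peaks is therefore not independent of the rule. In windows of 100 bp only the difference from distal peaks passed (co-occupied, 4.84 points, adjusted p = 0.555; BMAL1-only, 8.24 points, adjusted p = 0.0544, exact test). The difference from co-occupied peaks was 9.90 points (adjusted p = 0.0957) at protein-coding starts alone, and 10.2 points (adjusted p = 0.0597) without peaks that align to the mitochondrial genome, by the same exact test.

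The cores were gathered at the summit. The nearest core was centred at a median of 36.5 bp from the summit, within 25 bp in 71 members and within 50 bp in 114. Density reached 9.86 cores per kb between 100 and 50 bp on the lower-coordinate side of the summit and 8.93 in the next 50 bp, against 2.23 and 1.95 per kb at the outer ends of the 1000 bp examined to either side. The same lean to the lower-coordinate side was seen in distal peaks, with 8.58 per kb from 100 to 50 bp below the summit and 2.79 from 50 to 100 bp above it. From 100 to 50 bp below the summit and in the next 50 bp, co-occupied promoter peaks had 9.91 and 9.73 per kb. BMAL1-only promoter peaks had 7.67 and 6.44 there, so cores near the summit were not particular to members. Of the members, 91 had at least 2 cores, 42 at least 3, and the largest number was 8. An E-box counts as 2 cores in these numbers, so all 20 members with an E-box are among the 91. Members with a core had a median fold of 6.36, and the 40 without had 5.76.

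**Figure D2:**
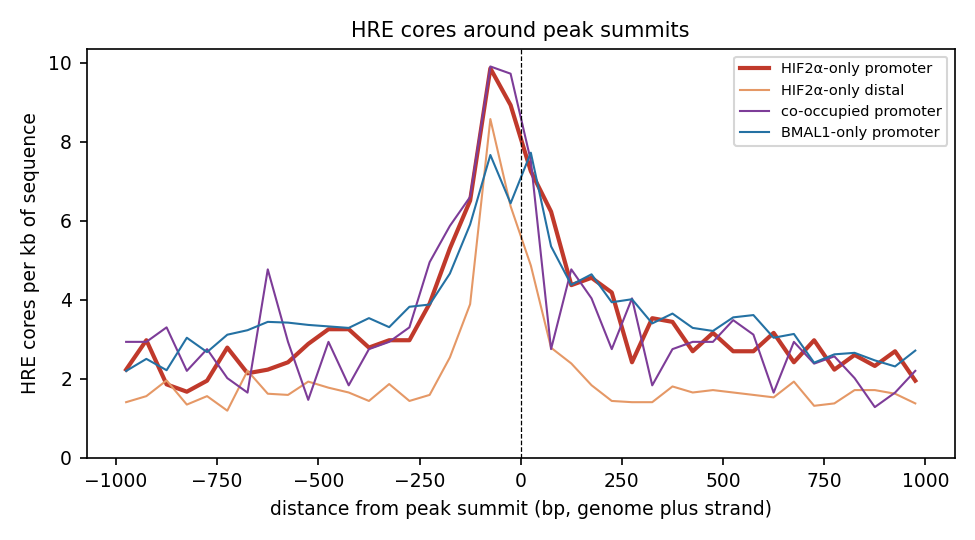
HRE cores per kb of sequence (y axis) in 50 bp bins by distance from the peak summit (x axis, bp, in genome coordinates of the plus strand) for the 4 peak classes. The line of HIF2α-only promoter peaks reaches 9.86 per kb just below the summit and falls to 1.95 to 2.23 per kb at the ends, and the lines of the other classes also peak near the summit.

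For the AP-1 site members stood between the distal peaks, which had the largest share, and the other promoter classes. For the GC box and the CCAAT box, given below, they also stood between, with the smallest share in distal peaks. It was found in 46 members (21.4%), in 32.0% of distal peaks, 11.0% of co-occupied promoter peaks, 3.16% of BMAL1-only promoter peaks and 2.49% of all protein-coding promoters. Members were 10.6 points below distal peaks (adjusted p = 0.00817, Fisher's exact test), 10.4 points above co-occupied peaks (adjusted p = 0.0326) and 18.2 points above BMAL1-only peaks (adjusted p = 4.36e-17). Neither of the 2 smaller differences passed in windows of 100 bp (−3.38 and 4.74 points, adjusted p = 0.316 and 0.314, Fisher's exact test), and both missed the threshold within quintiles of GC content (8.43 points below, adjusted p = 0.0504, and 8.89 above, adjusted p = 0.0561, Cochran-Mantel-Haenszel chi-square test). All but 1 of the members with an AP-1 site also had an HRE core, and 39 members had neither.

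The E-box was found in 20 members (9.30%), against 6.95% of all protein-coding promoters and 1.16% of the windows 2000 bp away. The share was 4.29% in distal peaks, 5.01 points lower (adjusted p = 0.0149, Fisher's exact test), and at protein-coding starts alone the difference was 1.45 points (adjusted p = 0.483). Against BMAL1-only promoter peaks, of which 11.97% had the E-box, the difference was −2.67 points (95% interval −6.504 to 2.307, adjusted p = 0.313, Fisher's exact test). Against co-occupied peaks it was 2.88 points (−4.14 to 8.55, adjusted p = 0.524, Fisher's exact test). Differences of several points to either side lie within these intervals, and the difference from BMAL1-only peaks, when promoters reached 2500 bp either way, was −5.00 points (adjusted p = 0.0128, exact test).

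The GC box was less frequent at members than at either promoter class called for BMAL1. It was found in 41.4% of members, 54.1% of co-occupied peaks (adjusted p = 0.0461, Fisher's exact test), 85.5% of BMAL1-only promoter peaks (adjusted p = 4.91e-38) and 56.5% of all protein-coding promoters. Among HIF2α peaks of p at or under 1e-20 the difference from co-occupied peaks was −1.98 points (adjusted p = 0.978, exact test). Distal peaks had it in 7.35% (adjusted p = 2e-27, Fisher's exact test). The rule places members at starts and distal peaks away from them, and the part of position in this difference was not tested. The CCAAT box was found in 27.9% of members and 39.2% of BMAL1-only promoter peaks (adjusted p = 0.00572, Fisher's exact test), while the comparisons with distal (21.1%, adjusted p = 0.0563) and co-occupied peaks (39.4%, adjusted p = 0.0540) missed the threshold.

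**Figure D3:**
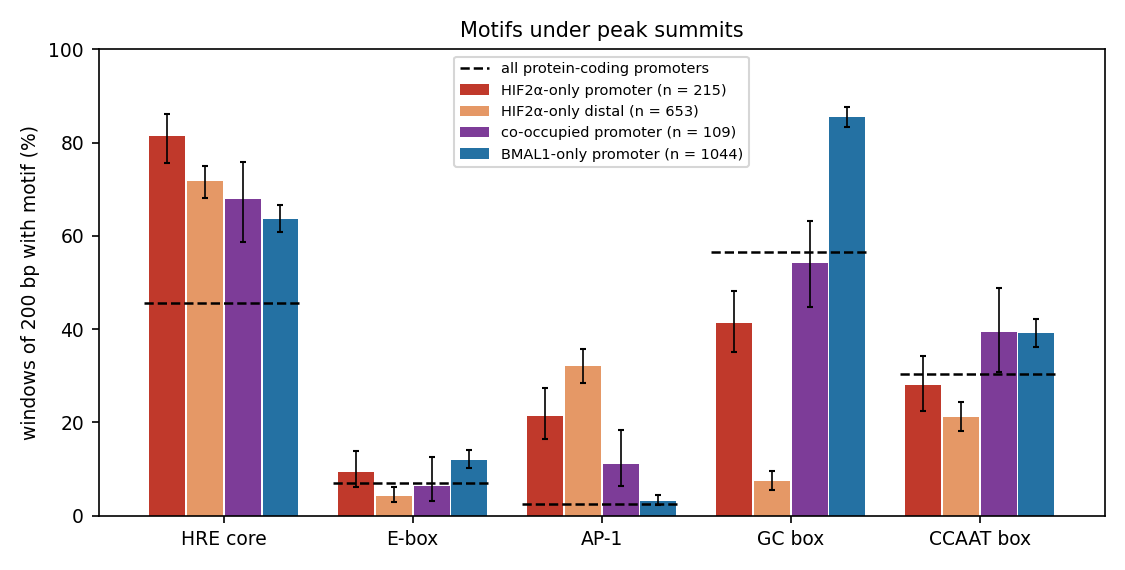
Share of 200 bp summit windows with each motif (y axis, percent, bars with 95% Wilson intervals) in the 4 peak classes, with dashed lines for all protein-coding promoters. HIF2α-only promoter peaks have the highest bar for the HRE core (81.4%), lie between distal and co-occupied peaks for AP-1 (21.4%), and lie far below BMAL1-only promoter peaks for the GC box (41.4% against 85.5%).

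Depletion of BMAL1 asks whether HIF2α is still called at starts where BMAL1 had not been called. A member was termed retained when it overlapped a HIF2α peak of shBMAL1 cells and lost otherwise. Of the 215 members 112 were retained (52.1%, 95% Wilson interval 45.4 to 58.7%), against a background of 57.7% of all 1204 HIF2α peaks. Distal peaks were retained in 58.2%, and the difference was −6.1 points for members (95% interval −13.7 to 1.51, two-sided Fisher's exact test, adjusted p = 0.263 over 2 comparisons). With all lists cut to the 768 strongest peaks it was −10.7 points (adjusted p = 0.0320, Fisher's exact test), within quintiles of p it was −2.04 (adjusted p = 0.823, Cochran-Mantel-Haenszel chi-square test), and among HIF2α peaks of p at or under 1e-20 it was 0.179 (adjusted p = 1, exact test). Co-occupied promoter peaks were retained in 51.4%, a difference of 0.717 points (−10.6 to 12.1, adjusted p = 0.907, Fisher's exact test). With the lists cut to equal length, which left 26 co-occupied promoter peaks, that difference was −16.1 points (adjusted p = 0.141, exact test).

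Retention followed peak strength. All 35 members in the strongest quintile of p were retained, then 25 of 37, 23 of 42, 14 of 45 and 15 of 56 in the weakest. Retained members had a median fold of 7.26 in shControl cells and lost members 5.78. In shBMAL1 cells the retained members had a median fold of 7.61, and 53 of the 112 had a higher fold there than in shControl cells. Their median rank by p was 421.5 in the shControl list and 396.5 in the shBMAL1 list, which are of unequal length. Only 1 of the 103 lost members had a HIF2α peak of shBMAL1 cells within 1000 bp. A lost peak is one not called, and it may still hold signal below the threshold.

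**Figure D4:**
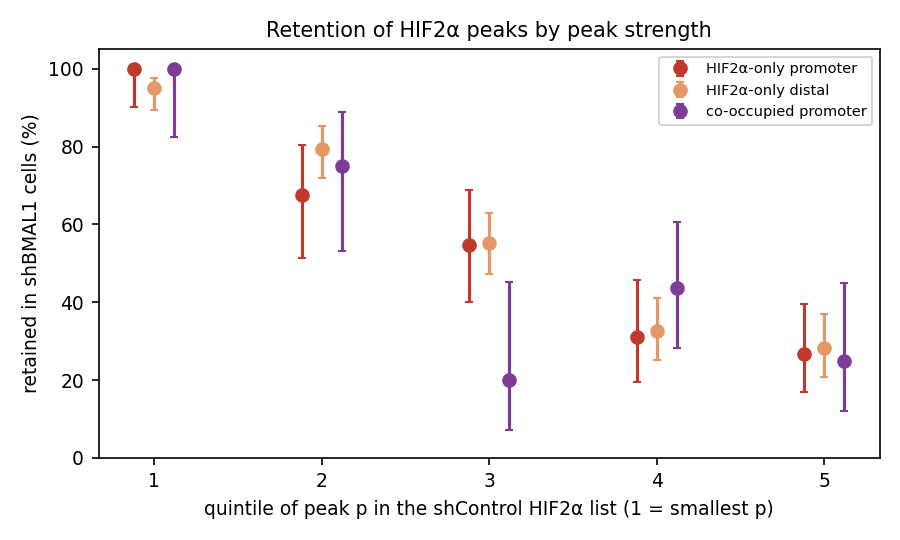
Share of peaks retained in shBMAL1 cells (y axis, percent, points with 95% Wilson intervals) by quintile of p in the shControl HIF2α list (x axis, 1 is the strongest) for HIF2α-only promoter, HIF2α-only distal and co-occupied promoter peaks. HIF2α-only promoter peaks go from 100% in the strongest quintile to 26.8% in the weakest, and their intervals overlap those of distal peaks in each quintile.

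By class of start, members at protein-coding starts were retained in 82 of 164 (50%, 95% Wilson interval 42.4 to 57.6%) and those at long noncoding RNA starts in 24 of 39 (61.5%, 45.9 to 75.1%). HRE cores were found in 135 and 35 of them. At pseudogene starts 4 of 9 members were retained, and 3 of 9 had an HRE core.

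The lost members of smallest p stood at PTP4A1, a tyrosine phosphatase gene (fold 9.26, −log10 p 30.8), and at ITGB1-DT, the divergent transcript of the integrin β1 gene (10.2 and 29.4). The next were LINC01411 (9.58 and 29.2), VOPP1 (9.67 and 27.6) and RSBN1 (8.86 and 27.0). Each had at least 1 HRE core, and ITGB1-DT, LINC01411 and VOPP1 also had an AP-1 site. None reached the strongest quintile.

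Retained and lost members differed in motifs. The HRE core was present in 100 of 112 retained members (89.3%) and in 75 of 103 lost ones (72.8%), 16.5 points apart (95% interval 6.04 to 26.8, two-sided Fisher's exact test, adjusted p = 0.0131 over 5 motifs). AP-1 sites were present in 28.6% and 13.6% (adjusted p = 0.0200), and the GC box in 33.0% and 50.5% (adjusted p = 0.0208), both by Fisher's exact test. E-boxes were present in 7.14% of retained and 11.7% of lost members, a difference of −4.51 points (−12.9 to 3.47, adjusted p = 0.348, Fisher's exact test), and the CCAAT box in 24.1% and 32.0% (adjusted p = 0.281). Since retained members were stronger, the shares were also compared within quintiles of p, where the differences were 15.5 points for the HRE core, 15.1 for AP-1 and −17.6 for the GC box (adjusted p = 0.0460 for each, Cochran-Mantel-Haenszel chi-square test). In windows of 100 bp the HRE, AP-1 and GC box differences missed the threshold (9.65, 10.2 and −8.43 points), and in windows of 400 bp the HRE and GC box differences did (7.03 and −13.1 points).

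Genes of the hypoxia response were well represented among the members. The list holds 64 genes known as targets of hypoxia and HIF, and was set with earlier results of these data known. A HIF2α-only peak lay at a start of 20 of them (31.2%), against 0.899% of all protein-coding genes. BHLHE40, KDM4B, LDHA, PDK1 and PFKFB4 of the list had a co-occupied promoter peak. All 20 members had an HRE core, 13 had at least 2, 3 had an AP-1 site and none had an E-box. The canonical start of a coding gene was among the starts that met the rule at 13 of the 20. Of the 20, 18 were retained (90%, 95% Wilson interval 69.9 to 97.2%), against 94 of the other 195 members (48.2%, 41.3 to 55.2%). The 20 were also stronger, with a median −log10 p of 26.2 against 17.6. In the 2 strongest quintiles 12 of 13 of them and 48 of 59 others were retained, and in the remaining quintiles 6 of 7 and 46 of 136.

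**Figure D5:**
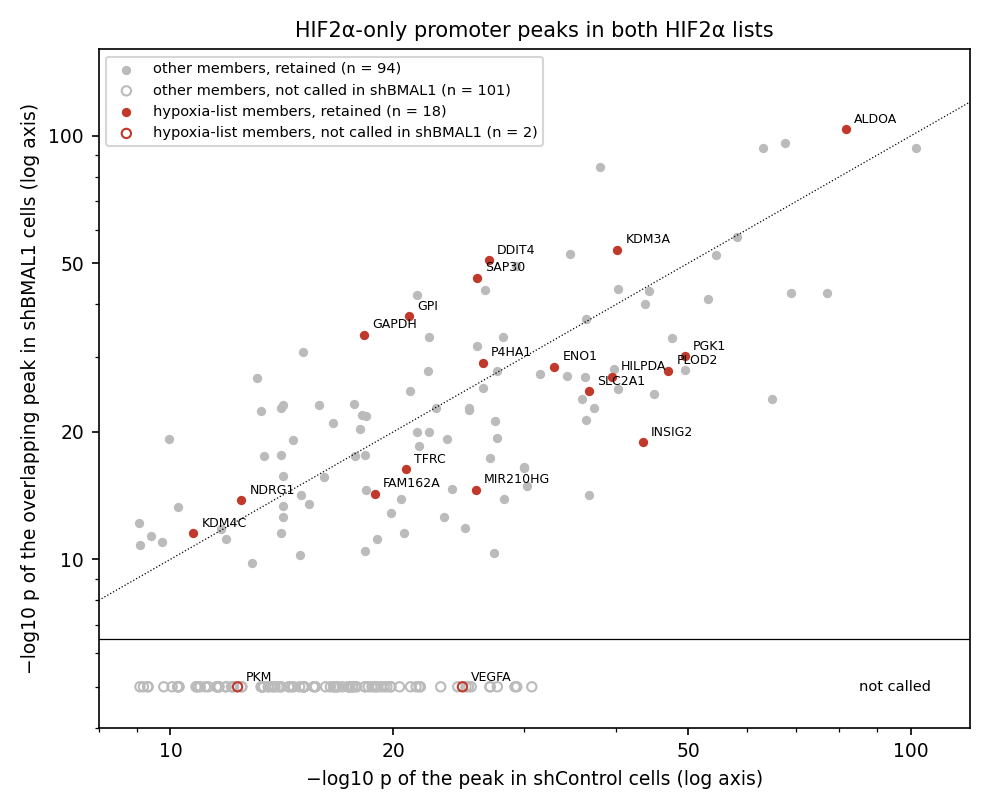
The −log10 p of each HIF2α-only promoter peak in shControl cells (x axis, log scale) against that of the overlapping HIF2α peak in shBMAL1 cells (y axis, log scale). Open circles in the strip at the bottom are peaks not called in shBMAL1 cells, placed at an arbitrary height, and the dotted line marks equal values. Red points are the 20 hypoxia-list members, of which 18 are retained and PKM and VEGFA are not.

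Glycolysis was represented by 6 enzymes. ALDOA is given above with folds of 14.9 and 20.6 in shControl and shBMAL1 cells. ENO1, enolase, had folds of 7.43 and 6.32, and PGK1, phosphoglycerate kinase, had 2.34 and 2.11. The PGK1 fold was the smallest of all members although its −log10 p was 49.5. GAPDH had folds of 5.37 and 10.6, and GPI, glucose-6-phosphate isomerase, had 6.59 and 14.2. PKM, pyruvate kinase, had 4.23 in shControl cells, a −log10 p of 12.3 and no peak in shBMAL1 cells. Among these enzymes the fold was thus higher in shBMAL1 cells at ALDOA, GAPDH and GPI, lower at ENO1 and PGK1, and PKM was lost. SLC2A1, the glucose transporter GLUT1, had folds of 7.94 and 8.18, with the summit in an intron of the gene and at a start other than the canonical one.

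Collagen-modifying enzymes were represented by PLOD2, a lysyl hydroxylase (folds of 11.8 in shControl and 6.51 in shBMAL1 cells), and P4HA1, a prolyl hydroxylase subunit (7.38 and 7.01). Chromatin factors were the histone demethylase genes KDM3A (9.31 and 11.6) and KDM4C (5.15 and 5.57), and SAP30, a subunit of the SIN3 deacetylase complex (6.74 and 13.5). In lipid metabolism HILPDA had 9.51 and 6.39, and INSIG2, which holds SCAP in the endoplasmic reticulum, had 9.27 and 5.71. All of these were retained, and PLOD2, HILPDA and INSIG2 had lower folds in shBMAL1 cells while KDM3A and SAP30 had higher ones.

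TFRC, the transferrin receptor of iron uptake, had folds of 6.21 in shControl and 4.19 in shBMAL1 cells. DDIT4, an inhibitor of mTORC1 signalling, had 5.06 and 9.91, and NDRG1 had 3.66 and 4.97. MIR210HG, the host of the hypoxia microRNA miR-210, had 7.53 and 5.13, and FAM162A had 7.04 and 4.46. VEGFA, the angiogenic growth factor, had a fold of 6.01 and a −log10 p of 24.8 in shControl cells, ranked 416 in the list and had no HIF2α peak at this start in shBMAL1 cells. VEGFA and PKM were lost, and the others of this group were retained with lower or higher folds.

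The other gene lists held few or no members. The share over all protein-coding genes was 0.899%, at which lists of these sizes would also hold few or none. The empty lists are therefore not read as a depletion. By the rule, a start whose HIF2α peak overlaps BMAL1 cannot give a member. No member lay at a start of the 23 circadian clock genes, while PER1, PER2 and BHLHE40 had co-occupied promoter peaks. None lay at the 16 bHLH-PAS genes, of which EPAS1 and ARNT had co-occupied promoter peaks. None lay at the 12 renal lineage factors or the 94 respiratory chain genes, and of the 19 angiogenic and secreted factors only VEGFA had one. Of the 17 AP-1 family genes JUN (folds of 10.9 and 8.12) and FOSL2 (6.36 and 6.32) had a member, and both were retained with an HRE core. That share, 11.8%, was the largest of these other lists. ZNF131, ZNF292 and ZNF8 had one among 515 zinc finger genes (0.583%), H2BC6 among 69 histone genes, and none of 101 genes with symbols of ribosomal protein type did.

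The 8 members of smallest p among those with an E-box are given here. The first of them, FGGY, ranked 28 by p among the members, so the strongest members had no E-box. FGGY, a carbohydrate kinase gene, had folds of 7.54 in shControl and 12.4 in shBMAL1 cells. CCDC107, whose start lies beside that of the RNA gene RMRP, had 8.001 and 7.997. NOCT, a phosphatase gene with rhythmic expression in many tissues, had 8.43 in shControl cells and was lost, and MFSD4B had 6.41 and was lost. ENSG00000261392 (7.63 and 14.6) and ENSG00000287560 (7.28 and 10.7) were retained, as was ENSG00000254028 (5.42 and 3.28), and ITGB1-DT was lost. Over all 20, 8 were retained.

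Distances from members to BMAL1 peaks are description only, because the rule used the same shControl BMAL1 list to exclude overlaps. The median distance to the nearest shControl BMAL1 peak was 294.2 kb, with no distance of other peak classes to set beside it. A BMAL1 peak lay within 1000 bp of 6 members and within 100 bp of 2, at PPP2R1A and DAG1, each 78 bp away. At the other side of the rule, the smallest overlaps that ended membership were 13 bp at ADAP1, 19 bp at PDK1 and 48 bp at the shared start region of CENPBD2P and MZF1. By position, the outermost members were at ADCY4 (midpoint 966 bp upstream, fold 3.22) and ENSG00000267446 (96 bp downstream, fold 7.79), and the nearest peaks outside were at CITED2 (1003 bp upstream, fold 4.66) and MICAL2 (102 bp downstream, fold 6.83).

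In shBMAL1 cells 2 members overlapped a BMAL1 peak of those cells, against 6.89% of all HIF2α peaks, 36 of the 109 co-occupied promoter peaks and 6 of the 653 distal peaks. These were at ENSG00000254824 on chromosome 11 (fold 5.21 in shControl and 7.79 in shBMAL1 HIF2α) and MTCO2P24 on chromosome 5 (8.22 and 7.84). Both are pseudogenes whose peak sequence aligns to the mitochondrial genome, over 96.6% and 100% of its length at 86.7% and 87.1% identity. Reads from mitochondrial DNA and from these copies could not be told apart in the lists.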

How the data were processed

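CUT&RUN libraries of 786-O cells were aligned by the authors to hg19 with Bowtie2 2.5.3. The authors removed duplicates, called peaks with MACS2 2.2.9.1 and a threshold on p, pooled the libraries of a group into 1 list, and removed blacklisted regions with bedtools 2.31.1. The control used in peak calling is not given in the sources used here. The deposited fold enrichment is a ratio over local background, the deposited −log10 p is a MACS2 value per peak, and the deposited −log10 q and score were not used. Per the authors the libraries kept were of similar depth, and a BMAL1 library of shBMAL1 cells with few reads was left out. The lists hold no read counts, so the depth behind a peak is unknown, and intervals cover counting error over peaks only.

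Peaks of 2 lists were matched where they shared 1 bp or more. Starts were those of all GENCODE 44 transcripts on GRCh37, whose chromosome coordinates are those of hg19, and positions are given from 1. Motifs were searched on both strands in 200 bp windows centred on summits; 2 windows of BMAL1-only promoter peaks with undetermined bases were left out. Peaks of which at least 50% aligned to the mitochondrial genome (blastn 2.17.0, E-value 1e-05) were termed mitochondrial-like. Shares carry 95% Wilson intervals and differences 95% Newcombe intervals (statsmodels 0.14.6). The test of a share was Fisher's exact test, two-sided, with peaks as units (scipy 1.17.1). It was adjusted by the Benjamini-Hochberg method within each family, with a threshold of 0.05. Stratified alternatives used the Cochran-Mantel-Haenszel chi-square test without continuity correction, written for this work with the chi-square distribution of scipy. The steps were tested on simulated data.

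The members, gene lists and tests were chosen with earlier results of these data known. The text names the 10 members of smallest p, members at listed genes, the 5 lost members of smallest p, members that overlap a BMAL1 peak of shBMAL1 cells, the members and peaks nearest to each edge of the rule, and up to 8 members with an E-box by p.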

Additional observations from a re-analysis of the deposited data

How the results depend on the processing

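The 25 values that answer a comparison were recomputed under alternatives, which gave 172 values, of which 134 were planned and 38 were added after the data were seen. Of the 164 alternatives with a test, 122 kept direction and side of the threshold, and 10 changed sign, none of them past the threshold before or after. These were retention against co-occupied peaks (−1.15 with promoters of 2500 bp, −3.04 at p at or under 1e-20 and −16.1 in lists of equal length) and against distal peaks (0.179 at p at or under 1e-20), E-box against co-occupied peaks (−0.253 with promoters of 2500 bp, −1.34 at protein-coding starts and −1.18 in windows of 400 bp), CCAAT box against co-occupied peaks (1.69 at p at or under 1e-20), and between retained and lost members E-box (0.503 in windows of 100 bp) and CCAAT box (2.66 in windows of 400 bp). With promoters of 2500 bp to each side there were 375 members, and the differences in percentage points were 2.94 (E-box, distal) and −6.18 (AP-1, distal), no longer past the threshold, and −5.00 (E-box, BMAL1-only) and −9.63 (CCAAT box, co-occupied), now past it. With protein-coding starts only, E-box against distal (1.45), and HRE (9.90) and AP-1 (7.34) against co-occupied peaks missed the threshold. Placing peaks by summit brought CCAAT box against co-occupied peaks (−11.9) past it. With HIF2α peaks of p at or under 1e-20 there were 88 members, and E-box (5.12), HRE (6.49) and AP-1 (−6.64) against distal, AP-1 (12.2) and GC box (−1.98) against co-occupied, and CCAAT box against BMAL1-only peaks (−12.6) missed it. In lists of equal length retention against distal peaks (−10.7) passed it.

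In windows of 100 bp E-box (2.97) and AP-1 (−3.38) against distal, HRE (4.84) and AP-1 (4.74) against co-occupied, HRE against BMAL1-only (8.24), and HRE (9.65), AP-1 (10.2) and GC box (−8.43) between retained and lost members missed it, and CCAAT box against distal (7.40) passed it. In windows of 400 bp GC box against co-occupied (−7.94), CCAAT box against BMAL1-only (−4.62), and HRE (7.03) and GC box (−13.1) between retained and lost members missed it. Without mitochondrial-like peaks HRE (10.2) and AP-1 (10.0) against co-occupied peaks missed it, as did AP-1 against distal (−8.43) and co-occupied peaks (8.89) within quintiles of GC content. With starts within 500 bp, 3.66% of members were at divergent promoters. For these changes the cause was not tested.

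No paired analysis was possible because each group has 1 pooled list and no column carries a replicate number, and for the same reason leaving out each library in turn was not possible. Peak lists hold no read counts, so that a lost peak and one just under the threshold cannot be told apart.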

Other observations

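The bases around the HRE core were described after the sequences had been seen, so no test is given. Taking the core nearest the summit, the first base of the core was A in 60.6% of 175 members, 72.4% of distal peaks, 40.5% of co-occupied promoter peaks, 23.6% of BMAL1-only promoter peaks and 29.6% of all protein-coding promoters with a core. The base before the core was T in 30.3% of members, 46.6% of distal peaks, 27.0% of co-occupied, 6.47% of BMAL1-only promoter peaks and 14.8% of all promoters. On both counts the members stood between the distal peaks and the promoter classes called for BMAL1.

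The letters CACA downstream of the core are known from HIF target genes as the HIF ancillary sequence. CACA began 6 to 10 bases after the core in 15 of 175 members (8.57%, 95% Wilson interval 5.26 to 13.7%), 10.9% of distal peaks, 1.35% of co-occupied and 1.35% of BMAL1-only promoter peaks, and 1.43% of 7827 protein-coding promoters whose core had room for it. The commonest place in members was 9 bases after the core, with 11 cases (6.29%), which was also the commonest place in distal peaks, with 26 (5.56%). It was found in 12 of 100 retained and 3 of 75 lost members with a core.

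Among the 9 members at pseudogene starts, 6 aligned to the mitochondrial genome over at least 50% of their length, as did 5 distal, 9 co-occupied promoter and no BMAL1-only promoter peaks. These were at ENSG00000254824, MTND1P22, MTCO2P24, ENSG00000283377, MTND1P28 and MTND1P9, chosen for naming after their values were seen. Their folds in shControl cells were 5.21, 6.66, 8.22, 3.66, 2.83 and 3.18. The identity ran from 83.0% at MTND1P9 to 90.6% at MTND1P28, 5 of the 6 had no HRE core, and 3 of the 6 were retained.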
